A study of Mus musculus with 2 samples.

Results

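Cycling activated satellite cells are here the cells of the ASC library, sorted as satellite cells, that carried transcripts of the cell division machinery. They were chosen by a rule on measured values. A barcode of the ASC library had to hold at least 500 genes, at most 10% mitochondrial UMIs (unique molecular identifiers, each standing for 1 captured transcript), under 5% of UMIs from 10 contractile genes and under 0.2% from 6 immune genes, and at least 0.1% of its UMIs from 12 cell cycle genes. The rule found 137 cells among the 423 barcodes that passed the other limits (32.4%, exact binomial 95% interval 27.9 to 37.1), among 1650 deposited ASC barcodes and 2416 in the whole series. The study sorted satellite cells from the tibialis anterior (TA) muscle of mice aged 8 weeks. The animals carried the alleles Pax7 CreERT2/+ and Rosa26 mTmG/+, with which a Cre recombinase expressed from the Pax7 locus switches a membrane reporter from red to green when tamoxifen is given. The QSC library came from uninjured muscle and the ASC library from muscle taken 1.5 days after an injection of cardiotoxin (CTX), a toxin that destroys muscle fibres. Both groups carry the same alleles, and for these samples neither the labels nor the methods state whether tamoxifen was given. The study shows the sort gate in a supplementary figure and does not state it in words. Each group is 1 library from cells pooled from 5 mice, so group and library cannot be told apart, no difference below has a replicate check, and all intervals cover counting error only.

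Satellite cells rest outside the cell cycle under the basal lamina of the muscle fibre and are marked by the transcription factor Pax7. After injury they leave quiescence, make the myogenic factor MyoD, copy their DNA and divide, and their descendants either leave the cycle with the onset of myogenin (Myog) and fuse, or return to quiescence. Replication genes are commonly transcribed by E2F factors from late G1, and mitotic genes later by complexes that bind the cell cycle homology region (CHR) and neighbouring CCAAT boxes.

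The cycling cells were set beside the remaining gated ASC cells, which were split at 0.1% of UMIs from Myog into 224 Myog-low and 62 Myog-high cells, and beside 386 QSC cells under the same gates. For each class, UMIs were summed over cells and given as CPM, counts scaled to 1000000 UMIs of that class. A gene was measured in a comparison if its mean over both classes was at least 20 CPM, and it was counted as higher or lower at a CPM ratio of 2 or more. Since the classes were cut from the same cells by 12 genes, the ratios describe the classes and no test was made. The cut at 0.1% Myog marks a range and not a cell type.

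By median, the cycling cells were the deepest of the classes compared. They held 982 to 47639 UMIs with a median of 23156, against medians of 5148.5 in Myog-low cells, 11245 in Myog-high cells and 2227.5 in QSC cells. Members made up 83.3% of the 96 gated ASC cells with at least 20000 UMIs and 4.72% of the 106 cells with 2000 to 5000 UMIs, but 45.5% of the 22 cells under 2000, where 1 or 2 UMIs reached the threshold. The 12 genes took 0.101% to 0.571% of a member's UMIs, with a median of 0.210% that stood on 1 to 150 UMIs (median 47), and 10 members had under 5. The 5 members nearest the threshold lay at 0.101% to 0.111% and the 5 nearest cells outside it at 0.0847% to 0.0988%. In the QSC library 11 of 397 gated cells passed the same threshold (2.77%, 1.39 to 4.90), only 1 of them with 5 or more UMIs of these genes. Because depth differed, the main list comparisons within the ASC library are also given among cells of at least 10000 UMIs (called the deeper cells), which kept 109 cycling, 41 Myog-low and 36 Myog-high cells. This limit was chosen after the data were seen. How much of a difference comes with RNA content and how much with the cell cycle was not tested.

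**Figure D1:**
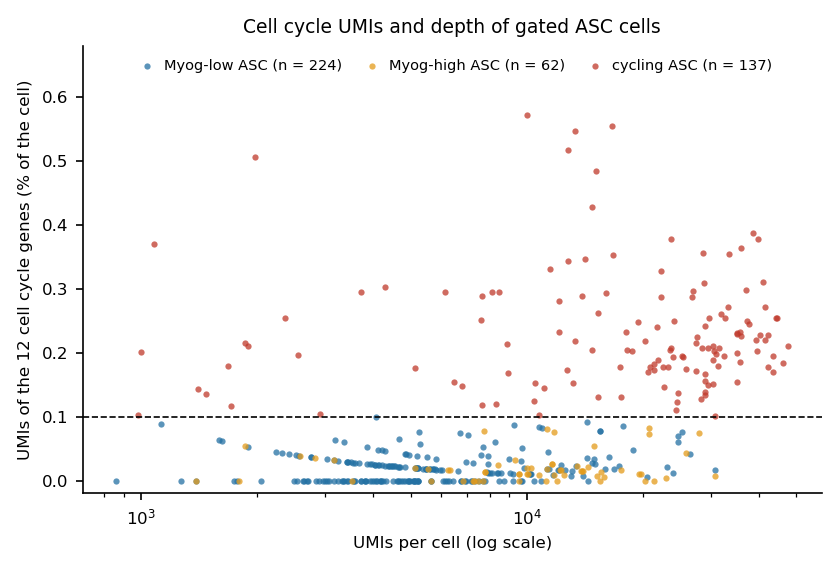
UMIs per cell (x axis, log scale) against the percent of UMIs from the 12 cell cycle genes (y axis) for the 423 gated ASC cells, coloured by class, with the 0.1% threshold as a dashed line. Most cells beyond 20000 UMIs lie above the line, and the few members under 2000 UMIs reach it with few counts.

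The leading markers of the class were high, as the rule fixes for the first 3 of them. Pclaf, a PCNA-binding factor of the replication fork, stood at 338 CPM in cycling, 16.8 in Myog-low, 23.4 in Myog-high and 0 in QSC cells, and was seen in 123 of 137 members. Rrm2, the small subunit of ribonucleotide reductase, reached 459 CPM against 31.7, 22.0 and 15.6 in the same order. Top2a, which untangles replicated chromosomes, reached 127.5 CPM against 3.88, 12.4 and 2.23. The remaining rule genes stood in cycling cells at 274 CPM (Pcna), 137 CPM (Tyms) and 118 to 132 CPM (Mcm3, Mcm5, Mcm6) on the replication side, and at 43.4 CPM (Mki67), 123 CPM (Cdk1), 215 CPM (Birc5) and 216 CPM (Cdc20) on the mitotic side. These values chose the members and are given as description. The nucleolar genes Ncl and Npm1 took no part in the rule. Ncl stood at 1453 CPM in cycling cells against 620, 658 and 496, and Npm1 at 2515 CPM against 1128, 1361 and 555. Among the deeper cells their log2 ratios over Myog-low cells were 0.91 and 0.66, below 2-fold.

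Most members held transcripts of the myogenic lineage, which do not tell a satellite cell from a committed myoblast. After every cell was thinned to 2000 UMIs, which left out 10 members, 78.7% of cycling cells held a UMI of Pax7, Myf5, Myod1, Cdh15, Itga7, Megf10 or Msc, close to 77.7% of Myog-low and 79.7% of Myog-high cells, against 9.41% of 85 immune-gated ASC barcodes. Des was set aside because 58.8% of immune-gated barcodes also held it, as free RNA can give. The gene behind this share was mainly Myod1, in 55.9% of cycling cells, while Pax7 was found in 3.15% and Myf5 in 6.30%. Unthinned, Pax7 had a UMI in 24.8% of members. No member took 1% or more of its UMIs from markers of other cell types, against 9 Myog-low cells. Macrophage markers (14 genes) took 0.0197% of the UMIs of cycling cells, a level that the immune limit of the rule holds down. No barcode of a member occurred in the QSC library, although the libraries shared 4 barcodes. Doublets were not called, and whether pairs of cells contribute to the depth of the members was not tested.

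**Figure D2:**
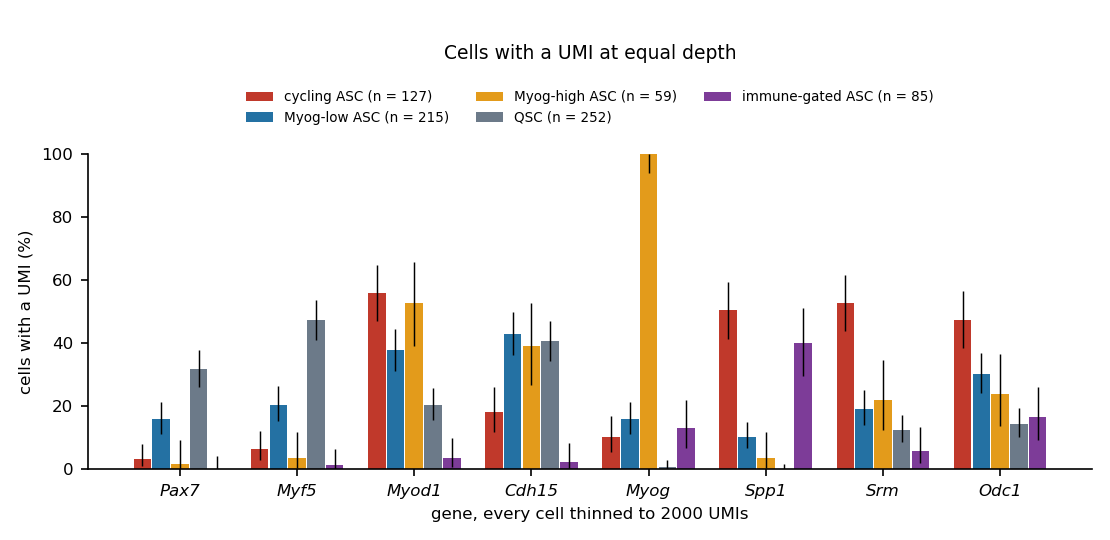
Percent of cells with a UMI of each gene after thinning every cell to 2000 UMIs, in 5 classes, with exact binomial 95% intervals as lines. Pax7 and Myf5 are found in few cycling cells, Myod1 in 55.9% of them, and Srm and Odc1 in more cycling cells than in any other class. The immune-gated barcodes serve as background for the muscle genes only, and Spp1 is also frequent in them.

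Genes of DNA replication outside the rule were higher in cycling cells. Of 38 S phase genes, 21 were measured against Myog-low cells, and 21 of those were at least 2-fold higher, with a median log2 ratio of 2.24, while 11.9% of all 4693 genes measured were higher and 10.3% lower, with a median of 0.14. Against Myog-high cells 22 of 22 were higher, with a median of 2.61, beside 13.4% higher and 11.1% lower of all 4673 genes. Against QSC cells 21 of 23 were higher, with a median of 2.80, beside 23.2% and 24.9% of 5214 genes. Scaling by TMM, edgeR's trimmed mean of M values, raises all ratios to QSC cells by 0.36 and gives 1715 genes higher and 980 lower in place of 1211 and 1300, so QSC ratios of that size have no fixed sign. A gene at low level elsewhere could enter only through the cycling class, so these counts describe the genes that passed. Among cells of at least 10000 UMIs, 22 of 22 were higher than in Myog-low cells with a median of 1.90, when 7.45% of all genes were higher and 6.47% lower.

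Of the polymerases and fork proteins, 15 of 20 measured were 2-fold higher than in Myog-low cells, with a median of 1.595, and 14 of 22 among the deeper cells, with a median of 1.30. The helicase gene Mcm2, which with the other MCM subunits licenses origins, stood at 104.5 CPM against 25.9 in Myog-low, 22.0 in Myog-high and 2.23 in QSC cells. Gmnn, which blocks a second licensing, stood at 77.3 CPM against 7.11, 8.26 and 1.12. Hells, a chromatin remodeller of the SNF2 family, reached 120 CPM against 12.9, 2.75 and 2.23, and was seen in 102 members. Its log2 ratio was 3.22 over Myog-low cells (95% interval 2.57 to 3.95) and 5.45 over Myog-high cells (3.59 to 8.50), the highest ratio over Myog-high cells among the genes ranked. Lig1, the ligase of Okazaki fragments, was 2.68 higher on the log2 scale than in Myog-low cells and 3.92 higher than in Myog-high cells. Tipin, a fork protection factor, was 3.21 higher than in Myog-high cells.

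Of 27 genes that supply nucleotides, 17 of 26 measured were 2-fold higher than in Myog-low cells and none lower, with a median of 1.20, and 12 of 27 among the deeper cells, with a median of 0.80. Tk1, the S phase thymidine kinase, stood at 142 CPM in cycling cells and at 11.0, 11.0 and 1.12 CPM in Myog-low, Myog-high and QSC cells, and was seen in 107 members. Dut, which keeps uracil out of DNA, was at 357 CPM with a log2 ratio of 2.38 over Myog-low cells. The purine enzymes Impdh2 and Paics stood 0.74 and 0.66 higher, below 2-fold.

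Histone and chromatin assembly genes followed, with 13 of 19 measured genes higher than in Myog-low cells and a median of 1.71, and 10 of 19 with a median of 1.35 among the deeper cells. The replication-dependent histone gene Hist1h2ap had the highest ratio of all genes ranked against Myog-low cells, at 794 CPM against 12.9 (log2 5.94, 5.31 to 6.65), and stood at 20.6 CPM in Myog-high and 1.12 CPM in QSC cells. It split the members. Only 78 of 137 held a UMI of it, the median of the members with at least 2000 UMIs was 62.4 CPM, and the highest reached 6807 CPM. Reads of this gene may come from near-identical histone copies, and poly(A) capture takes up such transcripts poorly, so its level is uncertain. The variant histone H2afz, which is made throughout the cycle, was found in 136 members at 2266 CPM against 661, 632 and 279. Hmgb2, a chromatin protein of dividing cells, stood at 554 CPM against 55.0, 79.8 and 61.4.

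Mitotic genes outside the rule were also higher. Against Myog-low cells 24 of 27 measured G2/M genes (of 49) passed 2-fold with a median of 2.36, against Myog-high cells 23 of 29 with a median of 1.97, and against QSC cells 23 of 27 with a median of 3.17. None was 2-fold lower. Among the deeper cells 22 of 27 were higher than in Myog-low cells, with a median of 1.74, and 22 of 28 higher than in Myog-high cells, with a median of 1.87, when 13.7% of all genes were higher and 11% lower. In the list of spindle and cytokinesis genes 13 of 13 measured (of 24) were higher than in Myog-low cells, with a median of 3.44, and 13 of 13 with a median of 3.02 among the deeper cells. Pbk, a mitotic kinase, stood at 105 CPM against 3.23 and 4.13 CPM in Myog-low and Myog-high cells, and at 0 in QSC cells. Ube2c, the ubiquitin-conjugating enzyme of the anaphase-promoting complex, stood at 144 CPM against 12.9 and 9.63. Its annotated exons overlap those of the contractile gene Tnnc2 on the opposite strand. Cdca8, a subunit of the chromosomal passenger complex, stood at 132 CPM against 12.9 and 8.26, and Racgap1, which builds the cleavage furrow, at 110 CPM against 12.9 and 24.8. Plk1, the polo-like kinase, stood at 60.5 CPM against 3.88 and 2.75.

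The promoters of these genes were read to show the letters that the replication and the mitotic genes carry. In windows from 250 bases before to 25 bases after the RefSeq start (GRCm38.p6), both strands were searched for E2F letters (TTTCCCGC, TTTGGCGC, TTTCGCGC or TTTGCCGC), CHR letters (TTTGAA or TTCGAA) and the CCAAT box (CCAAT). E2F letters occurred in 2.11% of 27025 promoters and in 4.46% of the 3793 genes measured against Myog-low cells that had a promoter in the table. They occurred in 8 of 26 S phase genes outside the rule (30.8%) and in 1 of 42 G2/M genes (2.38%). CHR letters were found in 18.5% of all promoters, in 5 of 26 S phase genes (19.2%) and in 27 of 42 G2/M genes (64.3%). CHR letters and a CCAAT box stood together in 6.95% of all promoters, in 4 of 26 S phase genes (15.4%) and in 23 of 42 G2/M genes (54.8%). These genes were listed by role, with earlier results of these data known, so the shares describe the lists, and a match is not a shown binding site.

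Examples of E2F letters, in capitals, are the 30 bases around the match of Pclaf (chr9:65890307-65890336, + strand) and of Hells (chr19:38930917-38930946, + strand), which lie in annotated first exons, and the window of Mcm6 (chr1:128359681-128359955, - strand), which holds 3 matches, of which 2 overlap.
Pclaf: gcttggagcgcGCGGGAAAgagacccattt
Hells: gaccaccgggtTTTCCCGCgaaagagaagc
Mcm6: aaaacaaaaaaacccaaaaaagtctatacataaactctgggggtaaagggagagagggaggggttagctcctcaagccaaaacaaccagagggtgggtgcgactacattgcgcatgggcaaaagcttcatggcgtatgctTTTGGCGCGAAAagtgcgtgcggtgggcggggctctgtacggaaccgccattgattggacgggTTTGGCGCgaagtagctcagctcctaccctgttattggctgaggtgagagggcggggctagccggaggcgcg

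Examples of mitotic promoters, with CHR and CCAAT letters of either strand in capitals, are Top2a (chr11:99024165-99024439, - strand), Cdc20 (chr4:118437328-118437593, - strand), Ube2c (chr2:164769679-164769922, + strand) and Racgap1 (chr15:99651632-99651906, - strand), cut to at most 25 exonic bases. Top2a held 4 CHR and 6 CCAAT matches, Ube2c held 1 and 6 (an overlapping pair included), Cdc20 held 1 and 2, and Racgap1 held 1 of each.
Top2a: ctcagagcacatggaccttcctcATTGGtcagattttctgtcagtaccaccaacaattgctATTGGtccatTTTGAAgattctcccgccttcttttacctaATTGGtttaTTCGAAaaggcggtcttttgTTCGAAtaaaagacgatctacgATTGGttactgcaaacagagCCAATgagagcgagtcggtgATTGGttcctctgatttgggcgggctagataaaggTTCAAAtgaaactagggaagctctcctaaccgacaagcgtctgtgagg
Cdc20: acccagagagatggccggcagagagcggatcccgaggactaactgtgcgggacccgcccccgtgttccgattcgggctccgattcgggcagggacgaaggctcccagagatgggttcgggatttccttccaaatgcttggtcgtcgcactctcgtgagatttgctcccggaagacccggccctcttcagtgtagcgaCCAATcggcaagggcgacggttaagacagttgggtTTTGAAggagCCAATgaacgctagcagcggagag
Ube2c: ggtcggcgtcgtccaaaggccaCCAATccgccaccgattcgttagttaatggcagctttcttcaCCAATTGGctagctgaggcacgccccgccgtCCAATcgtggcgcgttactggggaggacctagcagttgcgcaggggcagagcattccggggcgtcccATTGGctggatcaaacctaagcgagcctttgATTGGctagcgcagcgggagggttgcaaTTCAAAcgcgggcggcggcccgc
Racgap1: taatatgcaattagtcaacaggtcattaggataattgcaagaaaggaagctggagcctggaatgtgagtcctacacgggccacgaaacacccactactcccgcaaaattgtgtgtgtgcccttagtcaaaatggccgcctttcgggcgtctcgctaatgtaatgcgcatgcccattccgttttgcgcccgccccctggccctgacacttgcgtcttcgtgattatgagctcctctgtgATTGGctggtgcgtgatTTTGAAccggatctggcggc

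Most cyclins and cyclin-dependent kinases (CDKs) were higher in cycling cells. Of 19 genes 12 were measured against Myog-low cells, of which 10 were 2-fold higher and none lower, with a median of 2.09. In the deeper cells 7 of 14 were higher, with a median of 1.18. Cyclin A2 (Ccna2), of S phase and G2, stood at 136 CPM against 5.82 in Myog-low and 9.63 in Myog-high cells, and 0 in QSC cells (log2 4.55, 3.61 to 5.69, and 3.82, 2.76 to 5.14). Its exons overlap those of Exosc9 on the other strand. Cyclin B1 (Ccnb1), of mitosis, stood at 90.4 CPM against 3.88, 12.4 and 0. Among the deeper cells the log2 ratio over Myog-low cells was 3.85 for Ccnb1 but 0.51, below 2-fold, for the other B cyclin gene Ccnb2. The E cyclins of the G1/S transition stood at 45.0 CPM (Ccne1) and 38.8 CPM (Ccne2), with log2 ratios of 1.80 and 3.10 over Myog-low cells. These were 0.83, below 2-fold, and 2.67 in the deeper cells. After thinning, Ccna2 was found in 25.2% of cycling cells, in 0.930% of Myog-low cells, and in none of 59 Myog-high or 252 QSC cells.

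The D cyclins, which couple growth signals to G1, went different ways. Ccnd1 stood at 361 CPM in cycling, 162 in Myog-low, 89.4 in Myog-high and 71.5 in QSC cells, a log2 ratio of 1.16 (0.96 to 1.36) over Myog-low cells that was 0.68 among cells of at least 10000 UMIs. Ccnd3 went the opposite way, at 147 CPM in cycling and 424 CPM in Myog-high cells (log2 -1.53, -1.74 to -1.32), with 195 and 199 CPM in Myog-low and QSC cells. Ccnd2 was nearly absent from members, at 1.64 CPM. Their partner Cdk6 stood at 154 CPM against 22.0, 8.26 and 13.4 CPM, a log2 ratio of 2.81 (2.30 to 3.35) and 4.22 (3.09 to 5.67), which was 2.27 and 4.89 in the deeper cells. Cdk4 differed less, at 523 CPM and 0.95 over Myog-low cells. The small CDK-binding subunits Cks1b and Cks2 stood at 280 and 294 CPM, 2.57 and 2.37 over Myog-low cells.

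Of the 4 CDK inhibitors measured against Myog-low cells none passed 2-fold in either direction, beside 11.9% higher and 10.3% lower of all genes, with a median of -0.50 that was 0.18 among the deeper cells. Cdkn2a lay under the minimum level, at 11.2 CPM in cycling cells against 2.59, 2.75 and 1.12 CPM, on 34, 4, 2 and 1 UMIs. Cdkn1a (p21) stood at 179 CPM in cycling, 310 in Myog-low, 471 in Myog-high and 610 in QSC cells, so it was lowest in cycling cells. Its log2 ratio was -0.80 (-0.98 to -0.62) over Myog-low cells and -1.40 over Myog-high cells. Among the deeper cells these ratios were -0.51 and -1.36. Cdkn1b (p27) stood at 10.2 CPM against 82.7 CPM in QSC cells (-3.02, -3.67 to -2.40), and the other ASC classes also lay below QSC cells. Its mean per cell of at least 2000 UMIs was 12.8 CPM in cycling, 22.2 in Myog-low, 20.2 in Myog-high and 71.8 in QSC cells. Cdkn1c (p57), an inhibitor of differentiating muscle, stood at 7467 CPM in Myog-high cells and 106 in cycling cells (log2 -6.14, -6.31 to -5.98). Of the 322 UMIs of Cdkn1c in cycling cells, 174 lay in 1 cell and 219 in 2 cells. It was at 135 and 98.3 CPM in Myog-low and QSC cells.

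Among the regulators of E2F activity, E2f1 stood at 56.5 CPM against 10.4, 13.8 and 3.35, and Mybl2, the MYB partner of the mitotic gene complex, at 38.8 CPM against 1.94 in Myog-low and 0 in Myog-high and QSC cells. Rb1, the retinoblastoma repressor, was low in cycling cells (10.2 CPM), Myog-low cells (10.4 CPM) and QSC cells (14.5 CPM) and stood at 66.0 CPM in Myog-high cells (log2 -2.70, -3.40 to -2.01). Uhrf1 and Dnmt1, which copy DNA methylation to the new strand, stood 3.14 and 2.00 above Myog-low cells. Of the p53 targets listed, 1 of 8 measured was 2-fold lower than in Myog-low cells (Btg2) and none higher. Over all genes 10.3% were lower and 11.9% higher, so this count is near the share of all genes. Among the deeper cells 2 of 9 were lower, beside 6.47% of all genes.

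**Figure D3:**
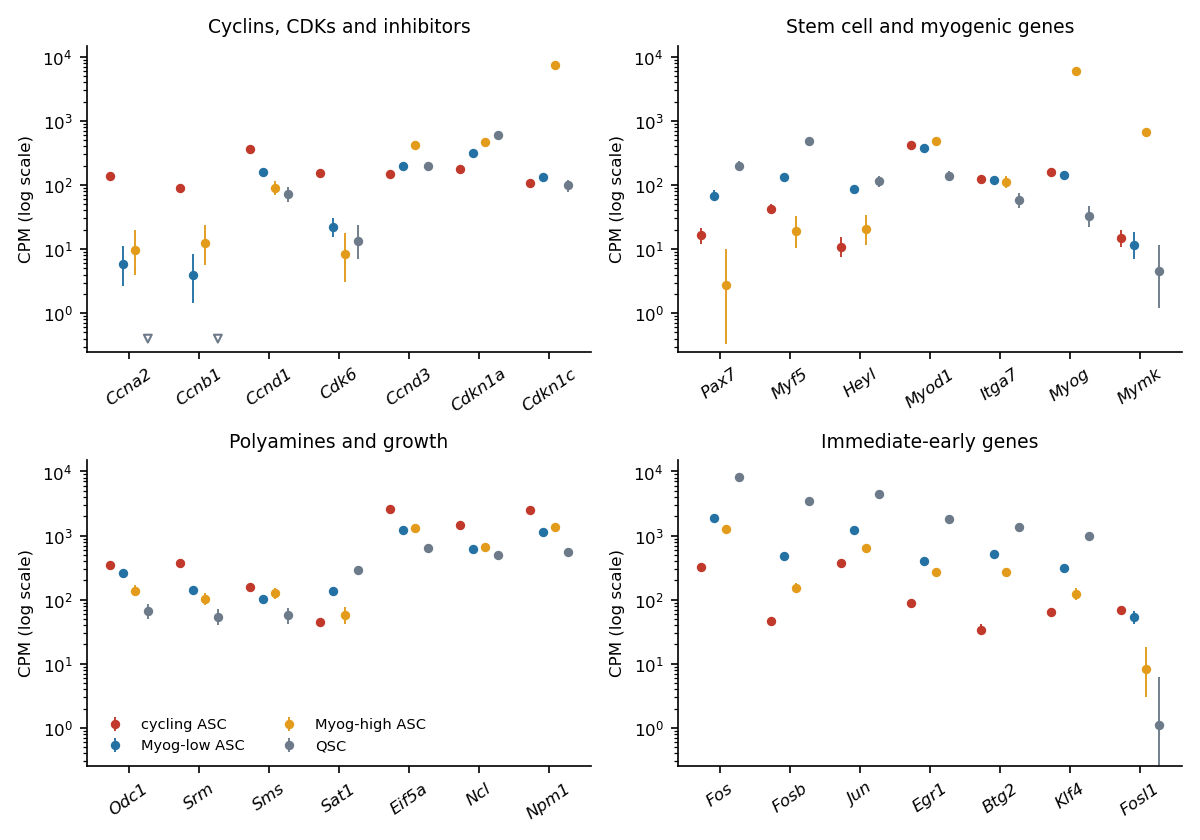
CPM (log scale) of selected genes in the summed UMIs of cycling, Myog-low and Myog-high ASC cells and QSC cells, with exact Poisson 95% intervals; an open triangle marks 0 UMIs. Cdk6 is highest in the cycling class, Cdkn1c and Myog in the Myog-high class, and the immediate-early genes other than Fosl1 are lowest in the cycling class.

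Genes of ribosome production stood above the other classes by less than the cell cycle genes. All 36 genes measured (of 40) had a ratio above 1 over Myog-low cells, of which 17 passed 2-fold, with a median of 0.98. Against Myog-high cells 33 of 37 had a ratio above 1, 8 passed 2-fold and the median was 0.72, and against QSC cells 30 of 36 passed 2-fold with a median of 1.59. In cells of at least 10000 UMIs, 2 of 37 passed 2-fold over Myog-low cells, a share no larger than the 7.45% of all genes, with a median of 0.57 beside 0.07 for all genes. Against Myog-high cells 8 of 37 passed there, with a median of 0.75. Lyar, a nucleolar protein, stood at 371 CPM and 1.51 over Myog-low, 1.79 over Myog-high and 2.40 over QSC cells. Dkc1, the pseudouridine synthase, and Nolc1, a nucleolar chaperone, stood 1.42 and 1.36 over Myog-low cells. Nhp2 of the same particle stood at 513 CPM, 0.93 over Myog-low and 3.20 over QSC cells. Nuclear transport and splicing genes had 10 of 22 higher than in Myog-low cells and a median of 0.96, and 4 of 23 with a median of 0.67 among the deeper cells. The transport GTPase Ran stood at 1681 CPM against 671, 693 and 192.

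Translation factors as a group differed little between the ASC classes. Of 38 measured, 2 were 2-fold higher than in Myog-low cells (Eif5a and Eef1e1) with a median of 0.41, none of 38 among the deeper cells, and 1 higher than in Myog-high cells (Eif6) with a median of 0.14. Against QSC cells 16 were higher and 1 lower, beside 23.2% and 24.9% of all genes, with a median of 0.84. Eef1a1, the main elongation factor, stood at 5876 CPM in cycling cells, below 8061 in Myog-low and 8872 in Myog-high cells and above 3312 in QSC cells. Oxidative phosphorylation genes of the nucleus stayed level, with 1 of 37 higher than in Myog-low cells and a median of 0.23. The glycolytic enzymes Pgam1 and Eno1 stood 1.52 and 1.17 above Myog-low cells. In their list of 16, 4 were higher and 1 lower, beside 11.9% and 10.3% of all genes.

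Polyamines are small cations that dividing cells make in quantity. Odc1, ornithine decarboxylase, makes putrescine, Srm adds an aminopropyl group to give spermidine, and spermidine in turn donates the side chain that Dhps and Dohh build into hypusine on the translation factor eIF5A. Of 16 genes of this pathway 11 were measured, of which 3 were 2-fold higher and 1 lower than in Myog-low cells (median 0.54), 3 higher and 1 lower than in Myog-high cells (0.37), and 6 higher and 2 lower than in QSC cells (1.001). Over all genes 11.9% were higher and 10.3% lower than in Myog-low, 13.4% and 11.1% than in Myog-high, and 23.2% and 24.9% than in QSC cells, so the members counted lower stood near or under these shares. Among cells of at least 10000 UMIs none of 11 was 2-fold higher than in Myog-low cells and 1 was lower (Sat1), with a median of 0.44.

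Srm had the highest ratio of the pathway. It stood at 380 CPM in cycling, 143.5 in Myog-low, 103 in Myog-high and 53.6 in QSC cells. The log2 ratios were 1.40 (1.19 to 1.62), 1.88 (1.54 to 2.24) and 2.82 (2.41 to 3.27), and in the deeper cells 0.75 over Myog-low and 1.74 over Myog-high cells. After thinning, Srm was found in 52.8% of cycling cells and in 19.1%, 22.0% and 12.3% of the same classes, with 5.88% in immune-gated barcodes. Odc1 stood at 352 CPM against 259, 139 and 65.9. Its ratio to Myog-low cells was 0.44 (0.28 to 0.61), and 0.06 in the deeper cells, whereas its ratio to Myog-high cells was 1.34 (1.05 to 1.65), and 1.59 in the deeper cells. Sms, spermine synthase, stood at 156.5 CPM against 103, 125 and 57.0.

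Of the catabolic and feedback genes, Sat1 was 2-fold lower than in Myog-low and QSC cells, but not than in Myog-high cells. Oaz2 was 2-fold lower than in Myog-high and QSC cells, but not than in Myog-low cells, and Oaz1 was level. Paox, the polyamine oxidase, had log2 ratios of 0.46 over Myog-low and 1.28 over Myog-high cells among the deeper cells, the latter under the minimum level. Sat1, the acetyltransferase that starts polyamine breakdown and export, stood at 44.1 CPM in cycling, 138 in Myog-low, 57.8 in Myog-high and 286 in QSC cells, a log2 ratio of -1.65 (-1.97 to -1.33) over Myog-low cells that was -1.07 in the deeper cells. Immune-gated barcodes held more Sat1, at 656 CPM. Smox, the spermine oxidase, was near the limit of counting at 6.25 CPM. Oaz1, the main antizyme, which binds Odc1 and sends it to degradation, was level at 1230, 1203, 1299 and 1331 CPM in the order cycling, Myog-low, Myog-high and QSC. Oaz2 stood at 62.8 CPM against 105, 146 and 152.

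Eif5a was found in 135 of 137 members at 2588 CPM, against 1225 CPM in Myog-low, 1332 in Myog-high and 631 in QSC cells. The log2 ratios were 1.08 (1.01 to 1.15), 0.96 (0.86 to 1.06) and 2.04 (1.91 to 2.16), and the first was 0.53 in the deeper cells. Per member with at least 2000 UMIs its median was 2601 CPM, with quartiles at 1826 and 2980 CPM. Dohh stood at 119 CPM against 59.5, 92.2 and 33.5, and Dhps at 44.7 CPM against 29.1, 17.9 and 22.3. Both genes, like Oaz1 and Azin1, overlap exons of other annotated genes, and their counts are less certain. The same holds for further genes given here, among them Spp1, Ncl and Top2a on the same strand and Cdk6, Ccnd1 and Cdkn1c on the other.

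**Figure D4:**
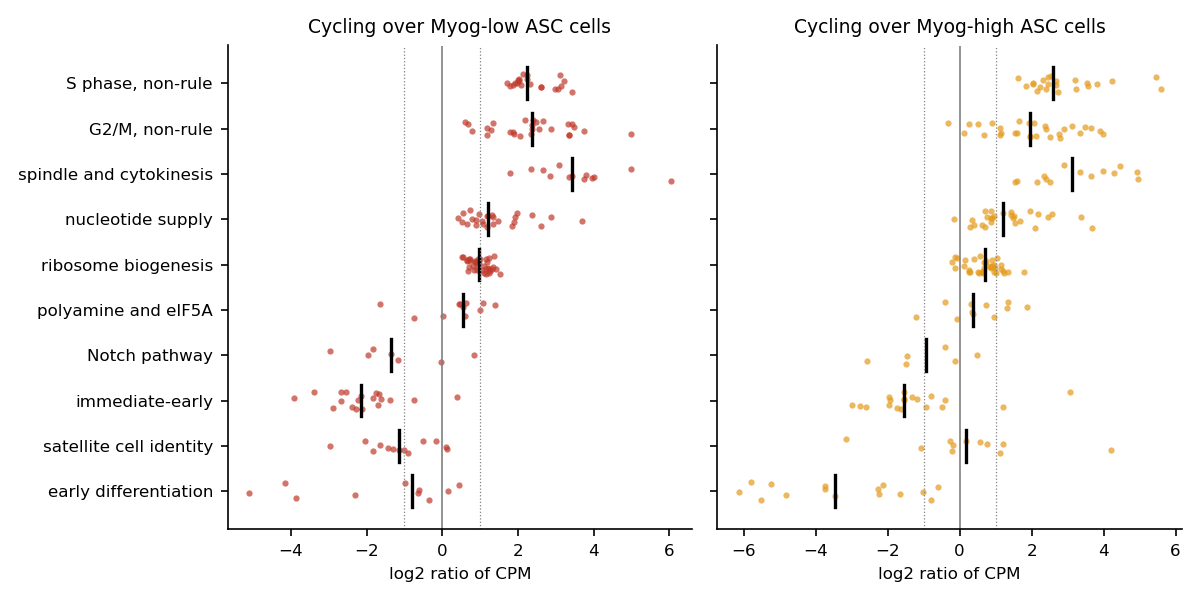
Log2 ratio of CPM of each measured gene (points) in 10 gene lists, for cycling over Myog-low cells (left) and over Myog-high cells (right); black bars mark list medians and dotted lines mark 2-fold. S phase and spindle genes lie beyond 2-fold in both panels, immediate-early genes lie mostly to the left, and the differentiation list is spread on the left panel and low on the right.

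Genes of stem cell identity were lower than in Myog-low cells but not than in Myog-high cells. Of 16 genes 13 were measured against Myog-low cells, with none 2-fold higher, 8 lower and a median of -1.14, and 12 against QSC cells, with 2 higher, 9 lower and a median of -1.98. Among the deeper cells 1 of 12 was higher and 6 lower than in Myog-low cells, with a median of -0.96. Against Myog-high cells 3 of 11 were higher and 2 lower, beside 13.4% and 11.1% of all genes, with a median of 0.18. Pax7 stood at 16.4 CPM in cycling, 67.9 in Myog-low, 2.75 in Myog-high and 201 in QSC cells, with log2 ratios of -2.05 (-2.56 to -1.55) and -3.61 (-4.09 to -3.15) over Myog-low and QSC cells. Among the deeper cells the ratio to Myog-low cells was -1.04. Under the 1% limit on mitochondrial UMIs of the study's methods, which left 21 cycling and 20 Myog-low cells, the list median over Myog-low cells was 0.31. Myf5, the early myogenic factor, stood at 42.1 CPM against 131, 19.3 and 487. Heyl, a Notch target, stood at 10.9 CPM against 85.4, 20.6 and 115.

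Myod1 and Itga7 were level within the ASC library. Myod1 stood at 416 CPM in cycling, 379 in Myog-low and 486 in Myog-high cells, log2 ratios of 0.13 (-0.01 to 0.28) and -0.22 (-0.40 to -0.05), and was 1.59 above QSC cells at 138.5 CPM. Itga7, a laminin receptor, stood at 126, 118 and 111 CPM. Cdh15 (M-cadherin), of the cell contact, stood at 120 CPM against 294, 250 and 241 and was lower than in each of these classes. Sdc4, a heparan sulfate receptor, stood at 426 CPM against 857, 186 and 2262, and Cd34 at 50.6 CPM against 56.9, 2.75 and 133. Among the deeper cells the log2 ratio over Myog-low cells was -0.29 for Sdc4, below 2-fold, and 1.08 for Cd34, so the latter turned to 2-fold higher.

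The Notch pathway keeps satellite cells quiescent. Of 7 genes measured against Myog-low cells none was higher and 5 were lower, with a median of -1.35, and 7 of 9 were lower than in QSC cells, with a median of -2.67. Hes1, a direct target, stood at 38.5 CPM against 149, 27.5 and 526, and the receptors Notch1 and Notch3 at 13.2 and 10.9 CPM against 33.6 and 38.8 in Myog-low cells. In the deeper cells 1 of 5 genes was 2-fold lower, with a median of -0.58, a count of listed genes at the minimum level only. There Hes1 and Notch3 stood at -0.58 and -0.68, and Notch1 and Heyl at -1.10 and -2.64. Hes6, which promotes myogenesis and is no classical Notch target, stood at 101 CPM, above Myog-low (56.3 CPM) and QSC cells (30.2 CPM) and below Myog-high cells (277 CPM).

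Differentiation genes were lower in cycling than in Myog-high cells. None of 15 was higher and 13 were lower, beside 11.1% lower of all genes, with a median of -3.46, which the Myog cut itself partly sets. Against Myog-low cells none of 10 was higher and 4 were lower, beside 10.3% lower of all genes. The median was -0.80, and -0.40 among the deeper cells. Against QSC cells 2 of 6 were higher and 1 lower, near the 23.2% and 24.9% of all genes for so few genes. Myog stood at 157.5 CPM in cycling, 143 in Myog-low, 5934 in Myog-high and 32.4 in QSC cells. Of its 479 UMIs in cycling cells 215 lay in 2 cells, and of its 29 UMIs in QSC cells 28 lay in 1 cell. Its log2 ratio over Myog-low cells was 0.14, and -0.50 among the deeper cells. Mymk (myomaker), of cell fusion, stood at 14.8 CPM against 677 in Myog-high cells, and Actc1, the cardiac actin of young muscle, at 26.6 against 1483. In 58 members no Myog UMI was found, and 6 members (4.38%, 1.62 to 9.29) had at least 0.1% Myog, against 21.7% (17.0 to 26.9) of the 286 gated cells outside the class.

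Immediate-early genes, which respond to stress and to growth factors within minutes, were mostly lower in cycling cells. Of 19 measured, 17 were lower than in Myog-low cells (median -2.14), 13 lower and 2 higher than in Myog-high cells (-1.54), and 18 lower and 1 higher than in QSC cells (-3.60). Fos stood at 321 CPM against 1861, 1259 and 8350, Jun at 370 CPM against 1206, 643 and 4471, and Egr1 at 87.4 CPM against 406, 270 and 1787. Btg2, an antiproliferative gene also driven by p53, stood at 34.2 CPM against 519, 274 and 1368, log2 -3.92 (-4.23 to -3.63) over Myog-low cells. Fosl1, a late FOS family member, was higher, at 69.0 CPM against 53.02, 8.26 and 1.12. In the deeper cells 7 of 18 were lower than Myog-low cells, with a median of -0.88. Values there were -1.39 for Fos, -0.66 for Jun, -0.80 for Egr1 and -2.36 for Btg2. Under the 1% mitochondrial limit Jun turned to 2.19, Atf3 to 3.74, Dusp1 to 1.20, Fosl2 to 2.99 and Nr4a1 to 2.44. Mitochondrial UMIs stood lower in cycling cells as well, at a median of 1.73% against 2.50% in Myog-low, 2.67% in Myog-high and 4.83% in QSC cells. Their part in the result was not tested.

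Fibroblast markers were lower in cycling cells as well. The 9 genes took 0.0371% of UMIs in cycling cells (0 to 0.602% per cell), 0.251% in Myog-low cells (0 to 2.74%), 0.0611% in Myog-high cells and 0.871% in QSC cells (0 to 11.4%). All 5 measured against Myog-low cells were 2-fold lower, with a median of -3.25. Most of these UMIs were Gsn and Col3a1, at 1427 and 844 CPM in Myog-low cells, whereas Pdgfra, the defining receptor of the fibro-adipogenic cell, was at 0 in cycling, Myog-low and Myog-high cells. Their part in the lower identity and immediate-early values was not tested.

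Myc, a driver of ribosome production, was not higher with the nucleolar genes. It stood at 36.2 CPM in cycling, 77.6 in Myog-low, 49.5 in Myog-high and 128.5 in QSC cells, log2 -1.10 (-1.49 to -0.72) over Myog-low cells, and -0.41 in the deeper cells. Mxd4, a MAX partner that opposes Myc, stood at 11.5 CPM against 63.4, 57.8 and 83.8.

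Several genes outside the cell cycle ranked high. Axl, a receptor tyrosine kinase, stood at 157 CPM against 54.3 in Myog-low, 11.0 in Myog-high (log2 3.83, 2.84 to 5.05) and 79.3 in QSC cells. Its ligand gene Gas6 stood at 7.56 CPM against 119 in Myog-low, 20.6 in Myog-high and 423 in QSC cells (-3.98, -4.67 to -3.35, over Myog-low cells, and -2.63 among the deeper cells). Arl4c, a small GTPase, stood at 112 CPM against 11.0 CPM in Myog-high cells. Spp1 (osteopontin) stood at 693 CPM in 98 members, against 125 and 94.9 CPM in Myog-low and Myog-high cells and 0 in QSC cells, at least 207-fold higher than in QSC cells with 0 counts set to 3. Immune-gated barcodes held more Spp1, at 1195 CPM, and the part of free immune RNA in the members' value was not tested. Timp1, an inhibitor of metalloproteinases, stood at 287 CPM in 111 members against 1.12 CPM in QSC cells. Among the deeper cells the log2 ratios over Myog-low cells were 0.92 for Timp1 and 0.51 for Arl4c, both below 2-fold.

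The genes ranked lowest against Myog-low cells were of several kinds. The globins Hba-a1, Hba-a2, Hbb-bs and Hbb-bt led, but 2064 of the 2090 Hba-a2 UMIs of the Myog-low class lay in 2 barcodes, and the ratio is a property of these 2. Tnni1, Tnnt1, Myl3 and Myl10, of slow or developing fibres, had 77.9% to 91.6% of their UMIs in 5 Myog-low cells. In contrast Chodl, Gas6 and Slc10a6 were spread over cells. Chodl, a membrane lectin, was found in 146 of 224 Myog-low cells and 34 of 137 members, at 310 against 20.1 CPM (log2 -3.95, -4.36 to -3.57), with 1404 CPM in QSC cells. The ratio was -1.997 in the deeper cells. Slc10a6, a steroid sulfate carrier, was found in 74 Myog-low cells and 12 members. Against Myog-high cells the lowest 12 were led by Cdkn1c, Actc1, Mymk, Fndc5 and Myog, and against QSC cells by Vtn, Clec3b, Tnxb, Gm17167 and Mfap5, of which the last 3 had no UMI in the members.

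Members varied in phase. Of the 127 members with at least 5 UMIs of the 12 genes, 14 had at least 50% of them from the 5 mitotic genes (Mki67, Top2a, Cdk1, Birc5, Cdc20) and are called mitosis-leaning, and 113 leaned to the 7 replication genes. The mitotic share ran from 0 to 92.3% with a median of 30.6%, and 17 cells lay between 40% and 60%, so the split marks a range. Mitosis-leaning cells were shallower, at a median of 12131 UMIs against 25848. Genes outside the rule followed the split. Of 43 G2/M genes measured, 26 were 2-fold higher in the mitosis-leaning cells and none lower, with a median of 1.25, beside 14.8% higher and 5.6% lower of 4915 genes and a median of 0.08. Of 27 S phase genes none was higher and 8 were lower, with a median of -0.50.

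Single genes differed along the cycle. Ccne1 and Ccne2 stood at 47.7 and 40.7 CPM in S-leaning cells and had 1 UMI each in the mitosis-leaning cells. Ccna2, Ccnb1 and Ccnb2 stood 1.16 (0.71 to 1.59), 1.35 (0.81 to 1.85) and 1.64 (1.15 to 2.10) higher in mitosis-leaning cells, and Cenpf, a late kinetochore protein, 2.50 (1.88 to 3.09) higher. Ung, which removes uracil from replicating DNA, had 165 UMIs in S-leaning and 0 in mitosis-leaning cells. Tk1 was level, at 142 and 143 CPM. Ribosome biogenesis genes had a median of -0.56 on the mitotic side, with 6 of 36 lower and none higher, and translation factors a median of -0.25, with 1 of 38 lower. Of 5 Myc network genes measured 3 were higher, with a median of 1.61. Eif5a stood at 1405 against 2665 CPM (-0.92, -1.11 to -0.74), Odc1 at 171 against 363 CPM (-1.08, -1.66 to -0.56) and Ccnd1 at 183 against 373 CPM. Immediate-early genes were higher there, 11 of 18 with a median of 1.38. Markers of other cell types were higher there as well, 4 of 4 fibroblast genes measured (median 1.92) and 2 of 2 neutrophil genes (median 4.32), and without the members of at least 0.1% Myog these medians were 2.30 and 4.62. Gsn stood at 491 CPM in mitosis-leaning and 124 CPM in S-leaning cells, and the neutrophil gene S100a9 at 194 and 6.31 CPM, on 34 and 18 UMIs. The part of these markers and of depth, which also differed, was not tested.

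The mitosis-leaning cells included 2 cells with 152 and 63 Myog UMIs, which set the class values of Cdkn1c (5.21 higher) and Myog (3.81 higher). Without the 5 of these 127 members that held at least 0.1% Myog, Cdkn1c stood at 0.62 (-1.30 to 2.06) and Myog at -0.56 (-2.03 to 0.59), while the G2/M median was 1.03 with 21 of 41 higher, Ccnb1 stood at 1.22 and immediate-early genes were higher in 13 of 18.

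**Figure D5:**
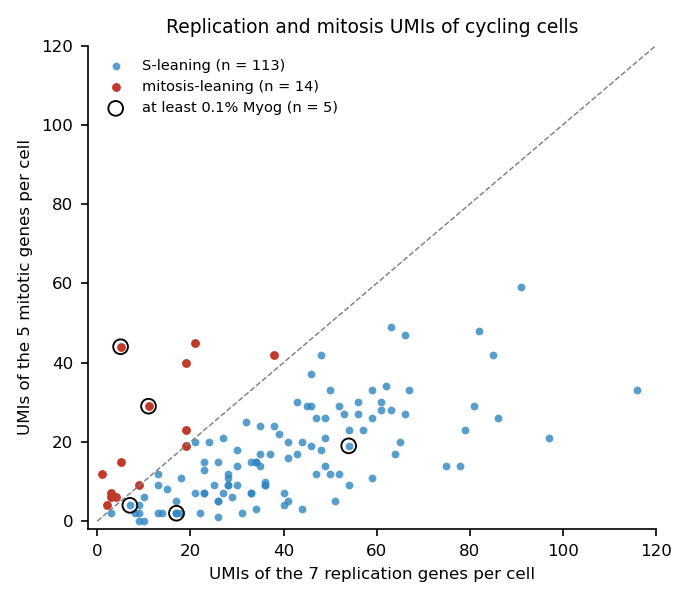
UMIs of the 7 replication genes (x axis) and the 5 mitotic genes (y axis) in each of the 127 members with at least 5 such UMIs; the dashed line marks equal numbers and open circles mark cells with at least 0.1% Myog. Of these, 14 lie on or above the line, and 2 of the circled cells are among them.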

How the data were processed

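Single-cell RNA was measured in 2 libraries, QSC and ASC, with the 10x Genomics 3-prime v2 chemistry. The deposited values are counts, the whole number of UMIs of each gene in each barcode. The file headers name cellranger 6.0.2, while the submitters' processing notes name Cell Ranger 7.1.0, Seurat 4.1.0, R 4.1.2 and mm10. Cells were chosen as stated above, with the study's limit of 500 genes and, in place of its limit of 1% mitochondrial UMIs, one of 10%. Features that share a symbol were summed. Total UMIs were 3041961 in cycling, 1546550 in Myog-low, 726789 in Myog-high and 895257 in QSC cells, so the floor of 3 counts is 0.986, 1.94, 4.13 and 3.35 CPM. CPM carry exact Poisson 95% intervals, ratios exact conditional binomial intervals and shares exact Clopper-Pearson intervals. Only the ratio intervals were checked, on counts simulated without variation between cells. Fold bounds set 0 counts to 3. Cells were thinned without replacement. TMM factors came from edgeR 4.0.16 in R 4.3.3, and the rest was computed with Python 3.11.15, numpy 2.4.6, scipy 1.17.1 and pandas 2.3.3. Coordinates and exon overlaps come from GENCODE M21 and promoters from RefSeq, both on GRCm38.

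The members and the gene lists were chosen with earlier results of these data known. Named genes are the rule genes, the markers, genes of the lists by role, and the 12 highest and 12 lowest ratios to Myog-low and to Myog-high cells (5 each way to QSC cells) among genes of at least 100 CPM in the higher class, other than rule and mitochondrial genes. Alternatives were another cycle threshold, mitochondrial or contractile limit, CPM minimum, TMM, thinning and weighting cells equally. After the data were seen, a depth limit and the removal of members with Myog, of the deepest cells and of barcodes with other markers were added.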

Additional observations from a re-analysis of the deposited data

How the results depend on the processing

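No paired analysis was possible because each group is 1 library. Ratios of single genes were followed only for the ranked genes and for the genes of some lists by role. Of those that reached 2-fold, 366 of 387 kept their sign under every alternative that gave a value. The ranked genes were picked for large ratios, so this is not a rate for all genes. The number of cycling cells was 137, and 171 or 80 at a cycle threshold of 0.05% or 0.2%, 100 at a contractile limit of 2%, 109 with at least 10000 UMIs and 21 at a mitochondrial limit of 1%. The 558 genes higher and 482 lower than in Myog-low cells became 166 and 218 at the threshold of 0.2%, which moves weaker cycling cells into the Myog-low class, and 343 and 298 with at least 10000 UMIs. The genes higher became 1000 at the 1% mitochondrial limit and 923 after thinning to 2000 UMIs. Thinning leaves fewer counts, leaves out cells under 2000 UMIs and gives every cell the same weight, and these were not told apart. A minimum of 50 CPM gave 274 and 224 against Myog-low, 290 and 231 against Myog-high and 693 and 542 against QSC cells. No minimum gave 1702 and 3324, 1743 and 4551, and 2222 and 6204. Thinning gave 805 genes lower than in Myog-high cells, against 519. At the 1% mitochondrial limit 21 cycling and 20 Myog-low cells were left, and the ratios over Myog-low cells turned for the identity list (median 0.31), Atf3 (3.74), Cdh15 (0.064), Dusp1 (1.20), Fosl2 (2.99), Jun (2.19), Nr4a1 (2.44) and Peg3 (2.33). The cause was not tested. No ratio to Myog-high or QSC cells was taken at that limit, because too few counts were left, nor to QSC cells at 10000 UMIs, which none reached. Thinning turned E2f4 against Myog-low cells (-0.077) and Cdk2 against QSC cells (-0.15), and the 10000 UMI limit turned Hbb-bs (0.21). These turns are listed only for genes at the minimum level under that alternative. Below that level further ratios changed sign, among them Hba-a1 over Myog-low cells at 10000 UMIs (2.02). The mitosis-leaning cells numbered 12 of 123 when 10 UMIs were required. With 1 library per group, neither animal nor capture variation can be measured, and genes under about 20 CPM rest on few counts.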

Other observations

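Barcodes that the gates set aside also passed the cycle threshold. Among the 939 contractile barcodes of the ASC library 14 passed it (1.49%, exact binomial 95% interval 0.817 to 2.49), on a median of 2 UMIs of the 12 genes, and none of 104 did in the QSC library, which allows a share of up to 3.48% by the exact interval. Among the 106 immune-gated ASC barcodes 4 passed it (3.77%, 1.04 to 9.38), on a median of 14 UMIs of the 12 genes and 10776 UMIs in all, and none of 15 did in the QSC library, which allows up to 21.8%.

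The chaperone and proteasome lists were not part of any question above. Of 22 chaperone genes 5 were higher than in Myog-low cells, beside 11.9% of all genes, with a median of 0.66. Among them were the mitochondrial pair Hspd1 (882 CPM against 348, log2 1.34) and Hspe1 (1289 CPM against 590, log2 1.13). None of the list passed 2-fold among cells of at least 10000 UMIs, where the median was 0.31. Of 28 proteasome genes none passed 2-fold over Myog-low cells, with a median of 0.35. Against QSC cells 12 were higher, beside 23.2% of all genes, and these counts move with the scaling.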
